A study of Arabidopsis thaliana with 8 samples.

Results

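The genes AT1G71000 and AT2G20560 of Arabidopsis thaliana encode J-domain proteins, and their transcripts were followed across heat, anoxia and a combination of both stresses. Each gene was identified by its locus and has 1 probe set on the Affymetrix ATH1 array named with that gene alone. AT1G71000 lies on chromosome 1 and AT2G20560 on chromosome 2. They are 2 of the 22746 probe sets other than array controls, and both were among the 14535 that passed a filter on dim signals, a log2 intensity of at least 4 in at least 2 arrays. RNA came from 4-day-old seedlings of the ecotype Columbia 0. All groups were grown in the dark in liquid, half-strength Murashige-Skoog medium with 30 mM sucrose. The heat group spent 90 minutes at 38 °C, the anoxia group 6 hours without oxygen at 23 °C, the heat then anoxia group the heat first and the 6 hours without oxygen after it, and the control group was left untreated at 23 °C. Each of the 4 groups had 2 biological replicates with 1 array each, and precision is limited by that small number. Since a sample is a pool of tissues, fewer cells of a type and less RNA per cell cannot be told apart. The combined treatment lasted 6 hours longer than the heat alone, and no group was heated and then kept with oxygen for that time.

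J-domain proteins, also called HSP40s, hand unfolded proteins to HSP70 chaperones. A conserved tripeptide of histidine, proline and aspartate in the J domain makes HSP70 hydrolyse ATP, which locks the client protein in place. Nucleotide exchange factors such as Fes1 then release it, and HOP proteins link HSP70 to HSP90. In plants, several genes of this system are induced by heat through heat shock transcription factors. AT2G20560 belongs to the type II J-domain proteins, which carry C-terminal client-binding domains. The arrays measure RNA from the whole seedling and say nothing of the compartment in which a protein acts.

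Array-wide signal differed between the groups. Median intensities were 36.8 to 42.7 in the 4 heated arrays, 46.1 and 48.4 in anoxia and 50.9 and 53.2 in control, and the brightest probe set read 45157 to 47101 in heated arrays and 54450 to 55577 in the others. Replicates of a group correlated at 0.965 to 0.979 across 14535 probe sets, and 10.8% of these differed over 2-fold between the anoxia replicates, against 5.52% to 6.57% in the other groups. A probe set for 25S ribosomal RNA read 12.19 and 11.46 on the log2 intensity scale in anoxia replicate 2 and heat then anoxia replicate 2, against 2.79 to 6.58 in the other 6 arrays. Replicate 2 had the higher reading in all 4 groups. Because of the 2 highest readings, the comparison of anoxia with control and the interaction are also given without those 2 arrays. Of 21 tissue marker genes 3 had a named probe set. PORB, an enzyme of etiolated cotyledons, read 12.17 and 11.85 in heat then anoxia and 13.35 to 13.95 in the other 6 arrays. EXPA7 and EXPA18, which encode expansins of root hairs, read 1.89 to 3.43 in the 6 stressed arrays and 4.09 to 6.78 in controls, so they were dim in the same arrays in which the J-domain genes were high. Their part in the results was not tested.

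AT1G71000 gave an intensity of 17780 and 17013 in the heat arrays and 5.3 and 7.1 in control arrays. On the log2 intensity scale these are 14.12 and 14.05 in heat, and 2.41 and 2.83 in control. The groups lay far apart, with a mean of 14.09 ± 0.04 in heat and 2.62 ± 0.30 in control (SD, n = 2 each). Anoxia arrays read 9.48 and 9.66 (mean 9.57 ± 0.12, SD, n = 2), between the heat and control arrays and overlapping neither. Heat then anoxia arrays read 13.68 and 13.56 (mean 13.62 ± 0.08, SD, n = 2), slightly below both heat arrays. The order of the levels was heat, heat then anoxia, anoxia and control.

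AT2G20560 gave an intensity of 16823 and 18654 in the heat arrays and 36.7 and 67.4 in control arrays. On the log2 intensity scale it read 14.04 and 14.19 in heat (mean 14.11 ± 0.11), and 5.20 and 6.07 in control (mean 5.64 ± 0.62, SD, n = 2 each). Anoxia arrays read 9.52 and 10.27 (mean 9.89 ± 0.53), again between heat and control. Heat then anoxia arrays read 14.02 and 14.21 (mean 14.11 ± 0.14), which overlapped the heat arrays. The anoxia and control replicates were each further apart than those of the heated groups, and replicate 2 was the higher one in all 4 groups.

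**Figure D1:**
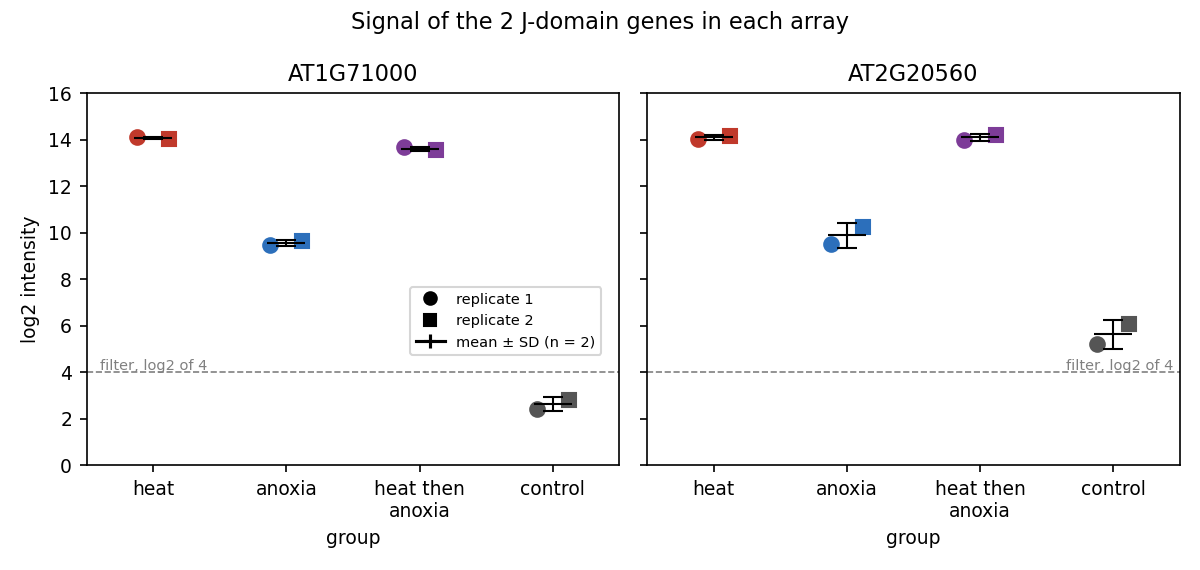
Log2 intensity (vertical axis) of AT1G71000 and AT2G20560 in each array by group, with circles for replicate 1, squares for replicate 2, and a bar for the mean ± SD (n = 2). The group means are 13.62 to 14.11 in the heated groups and 9.57 and 9.89 in anoxia, and AT1G71000 in controls lies below the dashed filter line at 4.

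The signals ran from the dim end of the arrays to near their top. In the control arrays 23.5% and 31.5% of the 22746 probe sets were dimmer than that of AT1G71000, whose signal stood below the filter in both, close to those arrays' 25th percentiles of 2.43 and 2.49. AT2G20560 was near the middle of the control arrays, with 46.7% and 52.9% of probe sets below it. In heat 99.7% and 99.7% of probe sets were dimmer than AT1G71000, which left 71 and 77 brighter ones. For AT2G20560 in heat the shares were 99.6% and 99.7%, with 80 and 65 brighter ones. Anoxia placed AT1G71000 above 87.3% and 88.5% of probe sets, and AT2G20560 above 87.5% and 91.9%.

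**Figure D2:**
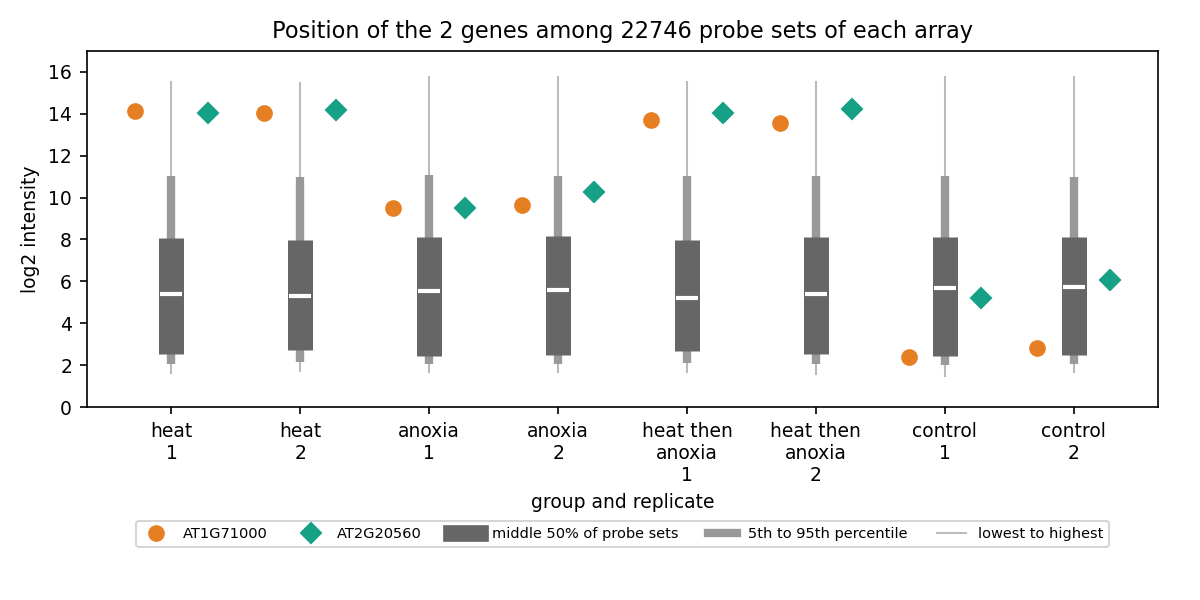
Log2 intensity (vertical axis) of AT1G71000 (circles) and AT2G20560 (diamonds) beside the spread of all 22746 probe sets in each array, drawn as the middle 50%, the 5th to 95th percentile and the full range. In heat both genes lie 1.28 to 1.49 log2 units under the brightest probe set, while in controls AT1G71000 lies 13.33 and 12.92 under it.

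Probe sets differ in how well they bind, so these positions describe signals and not molecules. The heated arrays brought AT1G71000 to within 1.41 to 1.95 log2 units of the brightest probe set and AT2G20560 to within 1.28 to 1.5. Whether the scale flattens at that height was not tested.

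Heated and control seedlings were compared first, for the response to warmth alone. AT1G71000 rose by 11.47 ± 0.24 on the log2 scale (SE; limma adjusted p = 2.33e-07), from control signals below the filter. AT2G20560 rose by 8.48 ± 0.36 (limma adjusted p = 2.78e-06), a 356-fold difference. In this comparison 10.5% of all probe sets tested were called higher, that is, at an adjusted p below 0.05 and at least 2-fold, and the median log2 fold change of all was -0.22. Since AT1G71000 was below the filter in controls, the size of its rise depends on the background model: with signals under log2 4 raised to 4, it rose by 10.09 (limma adjusted p = 4.88e-07), the 14th highest of 14535 log2 fold changes under that floor. The floor left AT2G20560 at 8.48, the 30th highest under it. Both genes were chosen with earlier results of these data known. Their p-values and ranks, here and in the comparisons below, therefore describe them and are no separate support.

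The comparison of anoxia with control asked whether lack of oxygen moved the genes without any heating. AT1G71000 rose by 6.95 ± 0.24 (SE; limma adjusted p = 4.42e-06), or by 5.57 with signals under log2 4 raised to 4, and AT2G20560 by 4.25 ± 0.36 (limma adjusted p = 0.000379), a 19.1-fold difference. With that floor these were the 29th and 74th highest of 14535, in a comparison in which 3.95% of probe sets were called higher. Without the 2 arrays of high 25S ribosomal RNA signal the rises were 6.87 (limma adjusted p = 0.00136) and 3.88 (limma adjusted p = 0.0114). Heat gave higher levels than anoxia, by 4.52 ± 0.24 for AT1G71000 (limma adjusted p = 1.94e-05) and by 4.22 ± 0.36 for AT2G20560 (limma adjusted p = 0.000138), with 9.46% of probe sets called higher.

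Seedlings heated before the anoxia had high levels of both transcripts. With signals under log2 4 raised to 4, AT1G71000 was higher in heat then anoxia than in control by 9.62 on the log2 scale (limma adjusted p = 6.86e-07), or 787-fold. The 95% interval from the signals as deposited was 10.46 to 11.55 (limma adjusted p = 2.14e-07). AT2G20560 was higher by 8.48 ± 0.36 (SE; limma adjusted p = 2.74e-06), and 15.2% of probe sets were called higher. The combined treatment stood above anoxia alone by 4.05 ± 0.24 for AT1G71000 (SE; limma adjusted p = 3.32e-05) and by 4.22 ± 0.36 for AT2G20560 (limma adjusted p = 0.000143), with 12.8% called higher.

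Heat then anoxia against heat alone asked what changed over the 6 hours without oxygen once seedlings had been heated. Lack of oxygen and the time after heating cannot be told apart in it. AT1G71000 stood at -0.47 ± 0.24 (SE; limma adjusted p = 0.251), with a 95% interval of -1.01 to 0.08. Both of its heat then anoxia arrays were below both heat arrays, an order that 2 arrays against 2 can take without a difference. The share of all probe sets with such an order was not counted. AT2G20560 stood at 0.00 ± 0.36 (limma adjusted p = 1.0), with an interval of -0.84 to 0.84. Neither gene was called, and the interval of AT1G71000 reached a fall of just over 2-fold. In this comparison 5.13% of probe sets were called higher and 4.66% lower. The heat and heat then anoxia levels are thus neighbours in order that were not told apart, while every other pair of groups was for both genes.

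The interaction asked whether the effect of heat was the same in seedlings with and without anoxia. For AT1G71000 the heat effect was 4.05 in anoxic seedlings and 11.47 in those without anoxia, an interaction of -7.42 ± 0.33 (SE; limma adjusted p = 4.39e-05), or -6.03 with signals under log2 4 raised to 4. For AT2G20560 it was 4.22 in anoxic seedlings and 8.48 without anoxia, an interaction of -4.25 ± 0.51 (limma adjusted p = 0.00497). Read the other way, anoxia differed from control by 6.95 and 4.25 for the 2 genes, and heat then anoxia from heat by -0.47 and 0.00. The second pair of values, and so the interaction, also holds the time that passed after heating, which cannot be told apart from anoxia. All arrays of AT2G20560, controls included, were above the filter, so raising signals under log2 4 to 4 could not change its interaction of -4.25. In both heated groups the 2 genes stood near the top of the arrays' range. Whether the scale flattens there, which would bear on the interaction, was not tested. Of all probe sets 2.45% had an interaction called lower and 3.73% one called higher. Without the 2 arrays of high 25S ribosomal RNA signal the interactions were -7.27 (limma adjusted p = 0.00693) and -3.98 (limma adjusted p = 0.0494).

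The distance between the 2 genes' signals was not the same in all groups. Its size depends on both probe sets, so only its change between groups is read here, without a test. The log2 intensity of AT1G71000 minus that of AT2G20560 within the same array was 0.08 and -0.13 in heat, -0.03 and -0.61 in anoxia, -0.34 and -0.65 in heat then anoxia, and -2.79 and -3.25 in control. The control arrays were below the other 6, which overlapped one another except that both heat then anoxia arrays were below both heat arrays. With signals under log2 4 raised to 4 the control differences were -1.20 and -2.07, still below the other 6. Across the 8 arrays the 2 genes correlated at 0.990 (Pearson), a description in which arrays of a group share their treatment.

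Other genes of the J-domain family served as background. Of 86 further listed J-domain genes 47 had a probe set named with that gene alone, and 36 of these passed the filter. The other 11 read between 1.89 and 4.29 in all arrays, among them ATJ1, a mitochondrial J-domain protein. The listed type I, plastid and ARG1-like genes had no named probe set and are not analysed here.

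In heat 6 of the 36 genes rose and 3 fell, where 10.5% of all probe sets were called higher and 17.9% lower. The median of the 36 was -0.06, against -0.22 over all probe sets. AT2G33735 read 9.82 and 9.45 in heat and 5.79 and 5.40 in control, a rise of 4.04 ± 0.25 (SE; limma adjusted p = 1.87e-05). AT4G28480, a type II protein like AT2G20560, read 12.66 and 12.51 in heat and 9.07 and 9.0 in control, a rise of 3.55 ± 0.21 (limma adjusted p = 1.31e-05). The next were AT1G56300 at 3.02, AT5G37380 at 2.21 and ATERDJ3B, an endoplasmic reticulum co-chaperone, at 1.60. The sixth, the type II gene AT5G01390, rose by 1.25 (limma adjusted p = 0.0120), but stood at 0.90 and was not called without control replicate 2 (limma adjusted p = 0.0741) or at 1.06 without heat replicate 1 (limma adjusted p = 0.0778). The largest of these rises, 4.04, was below the 8.48 of AT2G20560 and the 11.47 of AT1G71000. Since AT2G20560 and AT1G71000 were chosen with earlier results of these data known, that order is a description.

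The 3 falls in heat were small and depended on single arrays. AT1G16680 stood at -1.35 (limma adjusted p = 0.0328), which was not called without control replicate 2 (-1.06), heat replicate 1 (-1.42) or heat replicate 2 (-1.28). AT1G74250 stood at -1.30 (limma adjusted p = 0.0405) and was not called without the same arrays (-0.82, -1.53 and -1.08). AT5G49060 stood at -1.43 (limma adjusted p = 0.00903), at -1.13 and not called without heat replicate 2, and at -0.29 with signals under log2 4 raised to 4. It read 2.56 to 3.34 in the 6 stressed arrays and 4.30 and 4.27 in controls. It thus passed the filter through its control arrays alone and had to differ, so its calls carry no weight here.

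In anoxia 0 of the 36 other J-domain genes were called higher by limma, where 3.95% of all probe sets were, and 3 were higher at an unadjusted p below 0.05. A single gene (1 of 36) was called lower, where 5.92% of all probe sets were. The list's median was 0.00 and its highest value 0.90, for AT1G76700 (limma adjusted p = 0.0737). The 6 genes that rose in heat stood in anoxia at 0.32 for AT2G33735, 0.50 for AT4G28480, 0.57 for AT1G56300, 0.18 for AT5G37380, 0.15 for AT5G01390 and -0.74 for ATERDJ3B, and none of them was called. All 6 were higher in heat than in anoxia by the direct comparison, in which 0 of the 36 were called lower by limma (2 at an unadjusted p below 0.05). Of all probe sets 9.46% were called higher there and 12% lower. The differences of the 6 genes ran from 1.11 for AT5G01390 to 3.72 for AT2G33735. Since the 6 were picked by the same heat arrays, their being higher than in anoxia is partly set by that choice. The value of AT5G01390 was not called without heat replicate 1 (0.92), heat replicate 2 (1.29), anoxia replicate 1 (1.12) or anoxia replicate 2 (1.09). The gene called lower in anoxia was AT5G49060 (-1.23, limma adjusted p = 0.0416), which stood at -0.95 and was not called without anoxia replicate 2. Nor was it called, at -1.23, when either array of the combined treatment was left out.

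**Figure D3:**
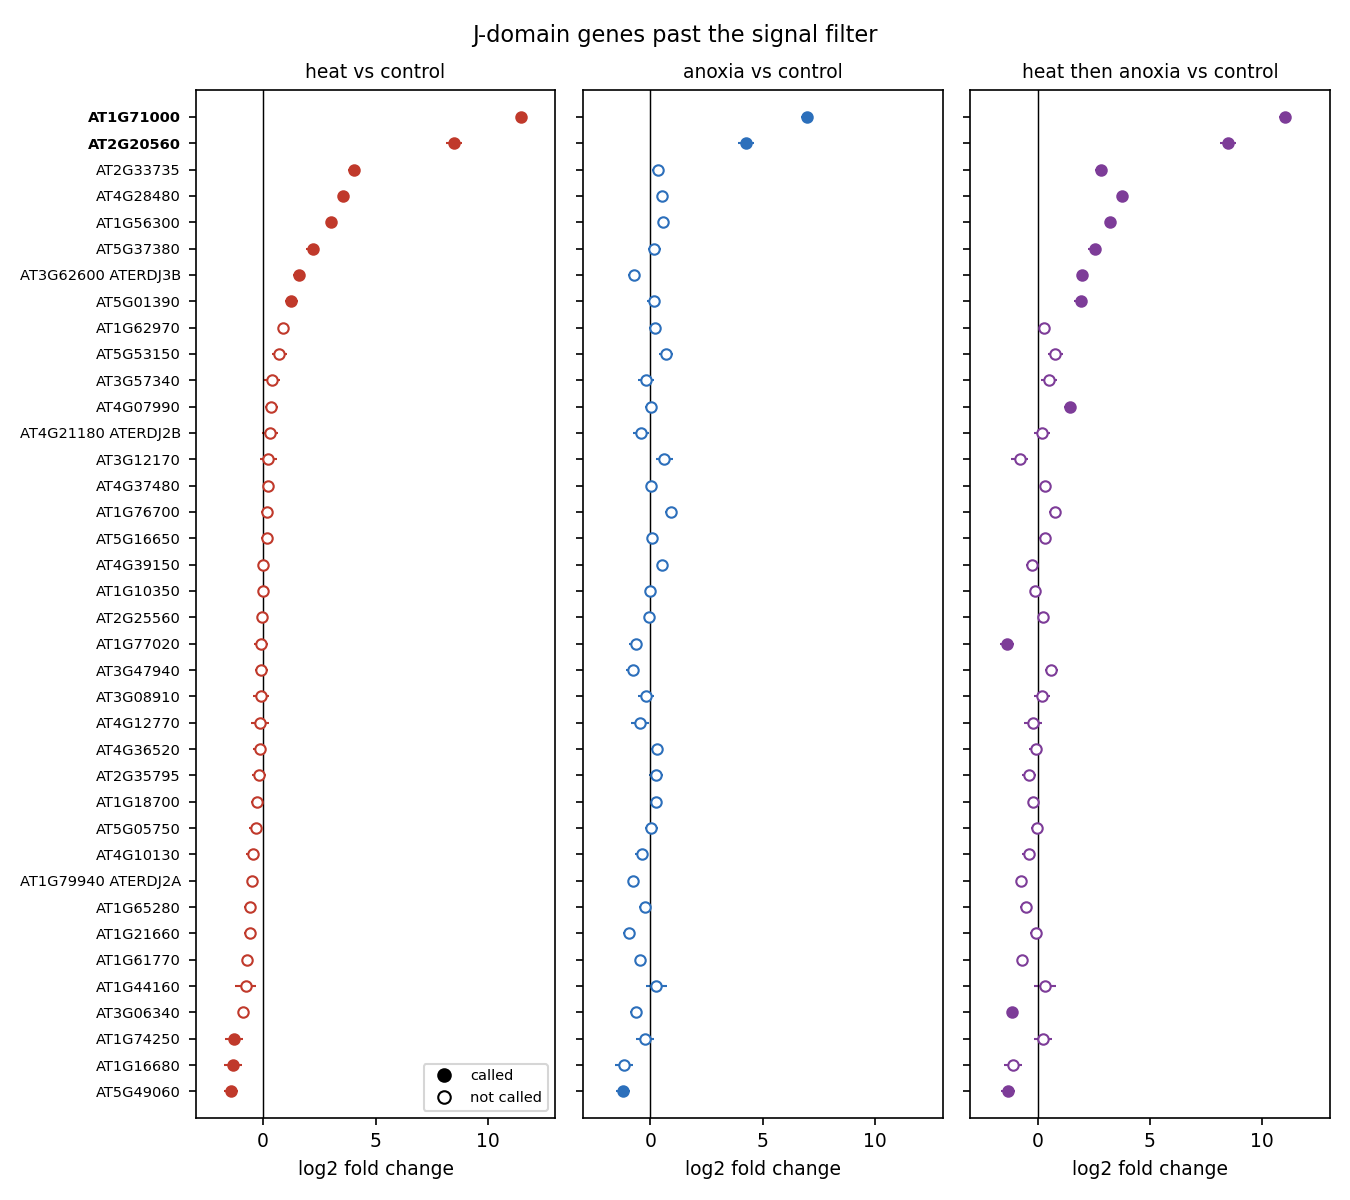
Log2 fold change (horizontal axis, bars show the SE) of AT1G71000, AT2G20560 and 36 other J-domain genes past the filter for the 3 treatments against control, ordered by the heat value. Filled points were called. AT1G71000 and AT2G20560, chosen with earlier results of these data known, are the top 2 in each panel. They are the only 2 with a filled point to the right of 0 in anoxia.

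After heat then anoxia 7 of the 36 genes were higher than in control and 3 lower, where 15.2% and 25.4% of all probe sets were. The 7 held the 6 genes that rose in heat, led by AT4G28480 at 3.76 ± 0.21 (SE; limma adjusted p = 9.38e-06), and AT4G07990 at 1.44 (limma adjusted p = 0.00361). AT2G33735 stood at 2.81, and it was the one gene of the 36 with a called interaction (-1.55 ± 0.36, limma adjusted p = 0.0460), where 2.45% of all probe sets had one called lower. That call was lost when any 1 of the 8 arrays was left out, at values of -1.75 to -1.36. The 3 lower genes were AT1G77020 (-1.34), AT5G49060 (-1.31) and AT3G06340 (-1.13). AT5G49060 was not called without heat then anoxia replicate 2 (-1.12) and stood at -0.29 with signals under log2 4 raised to 4. With quantile normalization AT1G77020 (-0.97) and AT3G06340 (-0.87) fell short of the 2-fold limit, and AT3G06340 did so with median centring too (-0.98).

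Set against anoxia alone, heat then anoxia gave 8 higher and 1 lower of the 36 genes, where 12.8% and 17.2% of all probe sets were. The 8 were the 6 heat-responsive genes, AT4G07990 (1.40) and AT3G47940 (1.38), and the lower one was AT3G12170 (-1.41, limma adjusted p = 0.0230). AT3G12170 stood at -1.51 and -1.31 and was not called without heat then anoxia replicate 1 and replicate 2 in turn, and at -0.49 with signals under log2 4 raised to 4. AT3G47940 stood at 1.00 and was not called without heat then anoxia replicate 2 (limma adjusted p = 0.0528). Without the 2 arrays of high 25S ribosomal RNA signal AT4G07990 stood at 1.09 (limma adjusted p = 0.0764). Set against heat alone, AT1G74250 (1.56) and AT4G07990 (1.08) were higher, while AT2G33735 (-1.23) and AT1G77020 (-1.26) were lower. These 2 higher and 2 lower of 36 are near the 5.13% and 4.66% of all probe sets called. Each of these 4 calls was lost when single arrays were left out, at 1.23 to 1.89 for AT1G74250, 0.76 to 1.39 for AT4G07990, -1.41 to -1.05 for AT2G33735 and -1.33 to -0.84 for AT1G77020.

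Partners of J-domain proteins were measured on the same arrays. Of 20 listed genes of the HSP70 system 8 had a named probe set, and all 8 passed the filter. In heat 5 of the 8 rose, where 10.5% of all probe sets did, with a list median of 3.67 against -0.22 over all. In anoxia 2 of the 8 rose, where 3.95% of all probe sets did, with a median of 0.29 against -0.01 over all. Hop3, Fes1A, Hsp70-2 and AT3G09440 were picked because they changed most in heat among the 8. The HOP gene Hop3 rose by 9.52 in heat and 5.11 in anoxia, and Fes1A, an HSP70-binding protein, by 7.44 and 2.96. The cytosolic HSP70 genes Hsp70-2 and AT3G09440 rose by 4.08 and 3.85 in heat and stood in anoxia at -0.20 (limma adjusted p = 0.714) and 0.17 (limma adjusted p = 0.760), where AT1G71000 and AT2G20560 stood at 6.95 and 4.25. Heat exceeded anoxia by 4.27 for Hsp70-2, 3.68 for AT3G09440, 4.49 for Fes1A and 4.41 for Hop3, partly set by that choice. Of the remaining genes Hop2 rose by 3.49 in heat, while Hop1 (-0.03), Fes1B (0.80) and Fes1C (0.81) were not called. In anoxia Hop2, Hop1, Fes1B and Fes1C were not called. The comparisons with control share the same 2 control arrays, so their values are not independent of each other.

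The genes with the most similar pattern were found by the root mean square difference of log2 intensities over the 8 arrays, after subtracting each gene's own mean, among 7822 single-gene probe sets past the filter. For AT1G71000 the nearest was AT1G52560, a small heat shock protein gene, at 0.649 log2 units (Pearson r = 0.995 over 8 arrays). It was followed by AT5G53680 (0.707), the small heat shock protein genes AT1G53540 (0.835) and AT5G51440 (0.848), and Hop3 (0.877). AT2G20560 was 10th in that order, at 1.22. In AT1G52560 the log2 intensities were 15.07 and 15.07 in heat, 11.41 and 11.58 in anoxia, 15.10 and 15.20 in heat then anoxia, and 2.68 and 2.96 in control.

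AT2G20560 had a closer match than AT1G71000 did. AT5G48570, which encodes the FK506-binding protein ROF2, differed from it by 0.228 log2 units (Pearson r = 0.998 over 8 arrays). Its log2 intensities were 14.68 and 14.92 in heat, 10.23 and 11.51 in anoxia, 14.72 and 15.03 in heat then anoxia, and 6.36 and 6.65 in control. Hop3 (0.532), AT4G23493 (0.544), AT4G17250 (0.544) and HSA32, a gene needed for lasting heat acclimation (0.550), came next. AT1G71000 was 51st in this order. The arrays of a group share their treatment, so these likenesses rest mainly on 4 group levels and are a description.

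**Figure D4:**
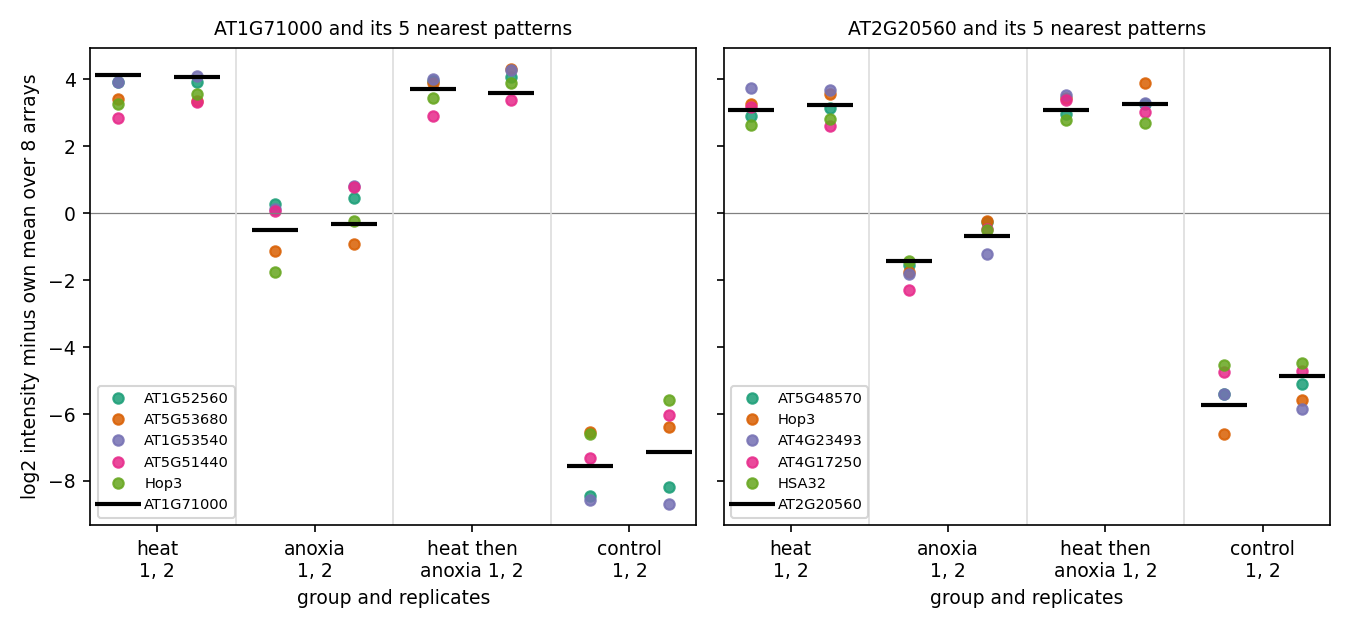
Log2 intensity minus each gene's own mean over the 8 arrays (vertical axis) for AT1G71000 and AT2G20560 (black bars) and the 5 genes nearest to each (points), by group and replicate. AT5G48570 lies at a root mean square distance of 0.228 from AT2G20560, while the 5 genes around AT1G71000 are 0.649 to 0.877 away.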

How the data were processed

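RNA of 8 seedling samples was hybridised to Affymetrix ATH1 arrays. The submitters' processing notes name GCRMA, which models background from probe sequence, with its version not given in the sources used here. Linear intensity was deposited by the authors, and its log2 was taken with no further normalization. A platform annotation, with RefSeq for TAIR10.1, gave 13513 probe sets a single gene and 503 more than 1 gene, leaving 8730 unnamed. The 64 array controls were left out.

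Each group's mean was estimated in limma 3.58.1 (R 4.3.3; 4 residual degrees of freedom), with Benjamini-Hochberg adjustment over 14535 probe sets within each comparison. Python 3.11.15 made the summaries. The fit was tested on simulated data. Members and gene lists were chosen with earlier results of these data known. Named genes are the members, other J-domain genes, the 4 HSP70 system genes with the largest change in heat and the 5 nearest patterns of each member. The labels name no batch. Promoter and protein sequences were not used here. Alternatives were other filters, a floor at log2 4, another variance model, only the groups compared, other normalizations, a replicate block, a stricter threshold and each array left out. Fits without both arrays of strong 25S rRNA signal were added after seeing the data.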

Additional observations from a re-analysis of the deposited data

Results flagged for a closer look

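The effect of heat differed between seedlings with and without anoxia, by the test of the interaction itself, for 12 of 30 checked genes. Of all probe sets 2.45% had an interaction called lower and 3.73% one called higher. Most of the 30 were picked by their values on these arrays, such as J-domain genes called in some comparison. Their count is therefore not a share to set against these. The direction was the same in all 12, with a smaller rise in anoxic seedlings. The interaction also holds the time that passed after heating, which cannot be told apart from anoxia. Whether the scale flattens at high signals was not tested. AT1G71000 and AT2G20560 were chosen with earlier results of these data known. Hop3 and Fes1A were chosen for large changes in heat, which the interaction subtracts. Hop3 is also among the nearest patterns of both J-domain genes. The shared direction is thus partly set by the choice of genes. The interaction was -7.42 for AT1G71000 and -4.25 for AT2G20560 on the log2 scale, and both stayed called whichever of the 8 arrays was left out. It was -4.86 for Hop3 (AT4G12400), where limma's adjusted p was 0.0509 without heat replicate 2, and -2.79 for Fes1A (AT3G09350). Without the 2 arrays of high 25S ribosomal RNA signal the adjusted p from limma was 0.0526 for Hop3 and 0.0537 for Fes1A. The interaction was -1.55 for AT2G33735, and it was not called when any single array was left out. The other 7 are among the genes nearest in pattern to AT1G71000 and AT2G20560, chosen for that likeness on the same arrays, so their interactions follow from the choice. They were AT1G53540 at -8.95, AT1G52560 at -8.60, AT5G51440 at -7.03, AT5G53680 at -4.73, AT4G23493 at -4.39, AT5G48570 at -4.30 and HSA32 (AT4G21320) at -3.54. With signals under log2 4 raised to 4 the interactions were -7.18 for AT1G53540, -7.42 for AT1G52560, -2.90 for AT5G53680 and -3.13 for AT4G23493. That floor gave -6.03 for AT1G71000 and left AT5G51440, AT5G48570 and HSA32 unchanged. The eighth such gene, AT4G17250, stood at -3.04 (limma adjusted p = 0.0558), or at -1.02 with the floor, and was not called.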

How the results depend on the processing

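For AT1G71000 and AT2G20560 all 250 values under the alternatives stayed on the same side of the threshold, and called values kept their direction. The value of AT2G20560 in heat then anoxia against heat, which was not called, ran from -0.1 to 0.1. Leaving out single arrays gave 11.26 to 11.68 in heat, 6.74 to 7.16 in anoxia and an interaction of -7.63 to -7.21 for AT1G71000, and 8.04 to 8.91, 3.82 to 4.69 and -4.69 to -3.81 for AT2G20560. The counts of other J-domain genes were less stable, and the cause was not tested. With single arrays left out, the number lower ranged from 0 to 3 in heat against control, 0 to 1 in anoxia against control, 0 to 1 in heat then anoxia against anoxia, 0 to 3 in heat then anoxia against heat, 0 to 1 in heat against anoxia and 0 to 1 for the interaction. The number higher in heat then anoxia against heat was 0 to 1, and HSP70 system genes with a lower interaction numbered 1 to 2. With no filter on dim signals 0 J-domain genes were lower in heat then anoxia against anoxia, 0 were higher and 1 lower against heat, and 0 had a lower interaction. Without the 2 arrays of high 25S ribosomal RNA signal 0 were lower in anoxia, 0 higher and 0 lower in heat then anoxia against heat, and 0 J-domain and 0 HSP70 system genes had a lower interaction.

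Replicate numbers occur in every group, but the labels do not tie them to a shared day, and same-numbered arrays correlated in their deviations at 0.0223 to 0.298. With a replicate block the adjusted p from limma was 2.2e-06 for AT1G71000 in heat and 0.000429 for AT2G20560 in anoxia, and 1376 probe sets had a called interaction, against 898 without the block. Over all probe sets, calls in anoxia against control numbered 667 to 938 under 5 alternatives, against 1434, in heat then anoxia against heat 333 to 761, against 1424, and for the interaction 197 to 443 without the block. At an adjusted p below 0.01 there were 2681 calls, against 4350, in heat then anoxia against anoxia, and 1934, against 3114, in heat against anoxia. Every listed gene with a named probe set had only 1, so averaging probe sets gave no other value. Signals near log2 4 or below limit the size of folds from dim levels.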

Other observations

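A named neighbour of each gene was looked up after the values of both were known. AT2G20550, next to AT2G20560 on chromosome 2, read 7.62 and 8.80 on the log2 intensity scale in heat, 6.63 and 6.72 in anoxia, 8.91 and 9.09 in heat then anoxia, and 6.67 and 6.69 in control. It rose by 2.32 in heat then anoxia (limma adjusted p = 0.00153) and by 1.53 in heat (limma adjusted p = 0.0143). The rise in heat was not called without control replicate 1 (1.52), control replicate 2 (1.54) or heat replicate 2 (0.94). In anoxia it stood at 0.00 (limma adjusted p = 0.999), where AT2G20560 rose by 4.25. The annotation also places the transcribed pseudogene AT2G20555 over 39 bases of AT2G20560, and whether any probe lies there was not tested.

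AT1G70990, next to AT1G71000 on chromosome 1, went the other way. It read 5.77 and 5.53 in heat, 4.82 and 5.93 in anoxia, 5.79 and 5.89 in heat then anoxia, and 7.02 and 7.04 in control. It was lower than in control by limma in heat (-1.39, adjusted p = 0.0190), anoxia (-1.66, adjusted p = 0.0235) and heat then anoxia (-1.19, adjusted p = 0.0249). The call in heat was lost without either control or either heat array, at -1.51 to -1.27. The call in anoxia was lost without either control array, at -1.67 and -1.65. The call in heat then anoxia was lost without either control or either heat then anoxia array, at -1.24 to -1.14.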
